A study of Mus musculus with 2 samples.

Results

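The genes described here are 8 genes that mark 3 rare kinds of granulocyte, in RNA from mouse erythroblasts, marrow cells that mature into red blood cells. They were chosen by name, with earlier results of these data known. They are Prg2, Prg3 and Epx of eosinophils, and Mcpt8, Prss34, Cpa3, Fcer1a and Ms4a2 of basophils and mast cells. All 8 were found in both libraries, among 21461 nuclear protein-coding genes of 69691 listed features. The libraries form 1 group with 2 biological replicates and no contrast of conditions. The labels describe primary cells of adult male C57BL/6J mice aged 5 to 6 weeks, with no genotype change or treatment named, and an isolation protocol named for erythroid and megakaryocytic cells of bone marrow. Each library was made with a ScriptSeq kit from 100 ng of RNA depleted of ribosomal RNA. The recorded size ranges differed, 200 to 764 for replicate 1 and 138 to 1000 for replicate 2. The labels give both replicates the same donor record, and their spread may therefore hold technical rather than animal variation.

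Eosinophils, basophils and mast cells are granule-bearing cells of allergy and of defence against worms, and all arise from precursors in the bone marrow. Eosinophil granules store strongly basic proteins and a peroxidase that kill parasites. Basophils and mast cells store proteases and histamine, and release them when antigen cross-links IgE held on the high-affinity receptor FceRI. GATA1, the leading transcription factor of red cell precursors, is also used in all 3 of these lineages.

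Over the 43346 Ensembl genes, replicate 1 held 37312624 expected counts and replicate 2 held 22464724. Of these, 57.7% and 52.4% fell in nuclear protein-coding genes. A count of 0 allows up to 0.0804 and 0.134 CPM (counts in every 1000000), for counting error only. Over 11182 coding genes the 2 libraries differed by more than counting noise (chi-square divided by its degrees of freedom, 41.8), so they are not the same library deposited again. Nuclear protein-coding genes held 11.3% and 6.89% of the deposited TPM, which covers all listed features. Levels are therefore given as coding-scaled TPM, rescaled to a total of 1000000 over nuclear protein-coding genes. All 9 erythroid genes of a marker list were detected, led by Hba-a2 (259461 ± 33401, SD, n = 2) and Hbb-bs (33776 ± 7515). The 12 neutrophil and the 8 monocyte and macrophage markers were all detected too, so detection does not tell these cells apart. By median level the erythroid list stood highest of the marker lists, at 3198 ± 474, with the neutrophil list next at 519 ± 18.9. Detected means at least 1 coding-scaled TPM in both libraries.

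All 8 genes were detected, against 43.9% of all nuclear protein-coding genes, and all 8 also reached 10 coding-scaled TPM in both libraries, against 23.0%. Their median was 43.8 in replicate 1 and 27.8 in replicate 2, while genes above 0 in either library had a median of 7.02 and 6.96. By deposited TPM, where the limit of 1 is stricter, 7 of 8 passed, against 20.3% of coding genes, since Fcer1a had 1.23 and 0.75. The 8 genes were chosen with earlier results of these data known, so these shares are not a test of them. Every gene had a posterior standard deviation of 0 counts in both libraries, so the authors' model shared none of its reads with another gene. No other annotated gene overlapped a member except the microRNA genes Mir7007 in Cpa3 and Mir6949 in Mcpt8, both at 0 counts. In bulk RNA, more cells of a type and more RNA per cell cannot be told apart.

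Prg2 encodes major basic protein, the cationic core protein of the eosinophil granule, and it was the highest of the 8. It lies on chromosome 2 (ENSMUSG00000027073, 84980461 to 84983632, plus strand, GRCm38) and had 5223 counts in replicate 1 and 2394 in replicate 2. Its level was 530 coding-scaled TPM (credibility bounds 512 to 541) in replicate 1 and 450 (428 to 464) in replicate 2. Replicate 1 was the higher, with bounds that did not overlap, and the mean was 490 ± 56.5. Prg2 ranked 259 of 12895 coding genes above 0, between Tut7 (491 ± 76.8) and the histone gene H3f3b (484 ± 117). It held 60.7% and 60.0% of the summed level of the 8 genes. The neutrophil elastase gene Elane stood at 0.758 ± 0.168 times Prg2 by TPM, and Alas2, the first enzyme of red cell heme synthesis, at 7.91 ± 1.62 times.

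Prg3 encodes a homolog of major basic protein and starts 4583 bases beyond the end of Prg2 on the same strand (ENSMUSG00000027072, 84988215 to 84993886). It had 245 and 120 counts, or 21.8 (19.3 to 26.2) and 23.1 (18.1 to 29.4) coding-scaled TPM in replicates 1 and 2. The libraries overlapped, and the mean was 22.4 ± 0.913. Prg2 stood 24.4 and 19.5 times above Prg3 by TPM in replicates 1 and 2, a mean ratio of 21.9 ± 3.41. The flanking coding genes differed: Slc43a3, before Prg2, stood at 249 ± 13.5, and P2rx3, after Prg3, had 0 counts in both libraries.

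Epx encodes eosinophil peroxidase, which makes hypobromous acid, and lies on chromosome 11 (ENSMUSG00000052234, 87864000 to 87875536, minus strand). It had 1659 and 641 counts, or 56.2 (50.9 to 61.3) and 32.6 (30.4 to 36.9) coding-scaled TPM. Replicate 1 was clearly the higher, and the mean was 44.4 ± 16.7. The authors' tables also give the gene different lengths, 2130 bases in replicate 1 and 2689 in replicate 2. Not divided by length, Epx held 77.0 and 54.5 of every 1000000 coding counts. Its relative Mpo, the peroxidase of neutrophils, stood 19.0 and 19.6 times above Epx by TPM. Lpo and Pxdn, of the same family list, had 0 counts in both libraries. The nearest coding genes were almost silent, with 0 and 5 counts for Mks1 and 0 in both for Olfr462.

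**Figure D1:**
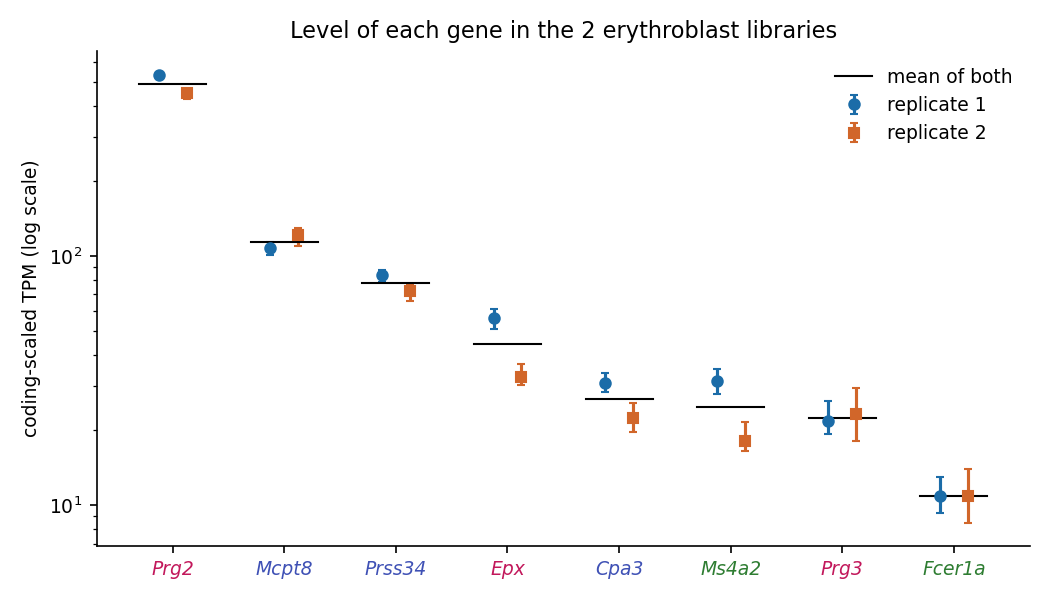
Coding-scaled TPM on a log scale for each of the 8 genes in replicate 1 (circles) and replicate 2 (squares), with the credibility bounds of the authors' tables as bars and the mean of both as a line. Prg2 stands alone near 490, and Fcer1a is lowest at 10.9 in both libraries.

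The basophil proteases came next. Mcpt8, a serine protease that marks mouse basophils, lies on chromosome 14 (ENSMUSG00000022157, 56082166 to 56085273, minus strand) in the chymase locus. It had 1094 and 657 counts, or 108 (101 to 114) and 121 (110 to 129) coding-scaled TPM, with a mean of 114 ± 8.70. Replicate 2 was the higher, but the bounds overlapped. Of 14 other proteases of the chymase locus, Ctsg (287 ± 28.0), a neutrophil granule protease that is the next coding gene on 1 side, was the only one detected. Mcpt2 had 0 and 6 counts, and the other 12 had 0 in both libraries, among them Mcpt4, the nearest coding gene on the other side, Cma1 and Gzmb.

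Prss34, which encodes the basophil and mast cell tryptase mMCP-11, lies on chromosome 17 (ENSMUSG00000056399, 25298394 to 25300165, plus strand). It had 1304 and 595 counts, or 83.6 (78.4 to 87.4) and 72.1 (66.0 to 77.4) coding-scaled TPM. Replicate 1 was the higher, and the mean was 77.8 ± 8.15. None of 8 other proteases of the tryptase locus had a single count in either library, among them the mast cell tryptases Tpsb2 and Tpsab1 and the adjacent gene Prss28.

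Cpa3 encodes the carboxypeptidase stored with proteases in mast cell and basophil granules, and lies on chromosome 3 (ENSMUSG00000001865, 20215620 to 20242181, minus strand). It had 592 and 224 counts, or 30.9 (28.5 to 33.8) and 22.3 (19.6 to 25.7) coding-scaled TPM, with a mean of 26.6 ± 6.07. Replicate 1 was the higher, and the bounds did not overlap. All 7 other members of the carboxypeptidase A and B list had 0 counts in both libraries, including its neighbour Cpb1. Gyg, on the other side, stood at 15.4 ± 1.47.

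**Figure D2:**
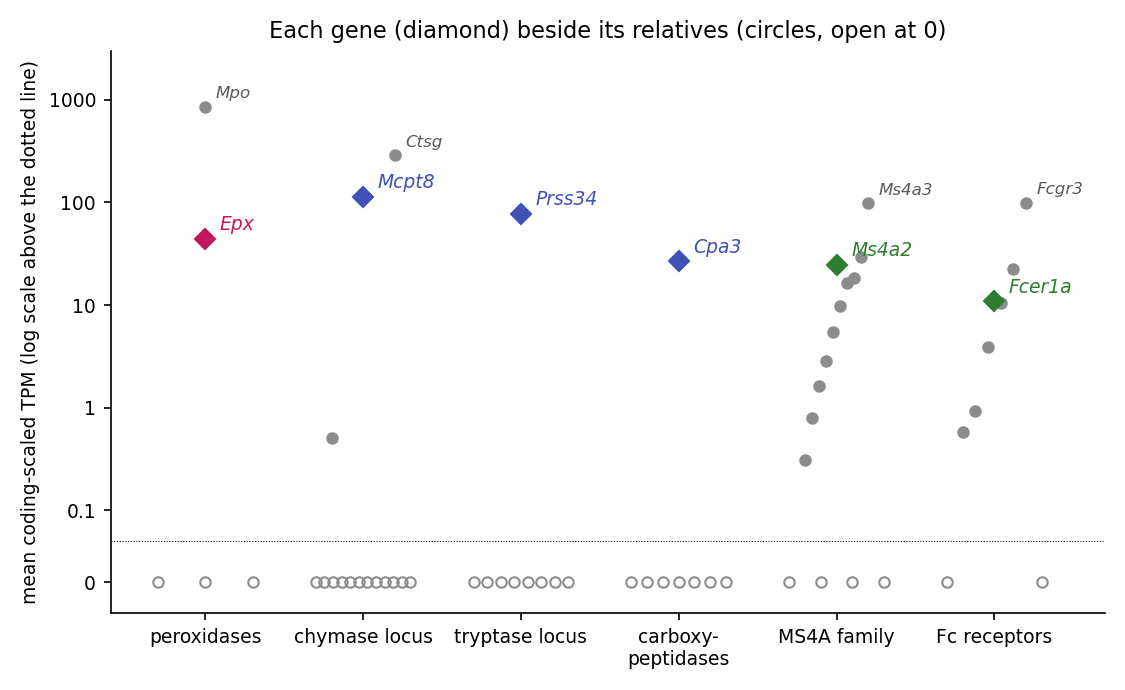
Mean coding-scaled TPM of 6 of the genes (diamonds) beside the relatives on their family lists (circles, open circles at 0 counts), on a log scale above the dotted line. The tryptase locus and the carboxypeptidases hold no relative above 0, while Mpo, Ctsg, Ms4a3 and Fcgr3 stand above the gene of their family.

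The IgE receptor subunits were among the lower genes. FceRI is built from an alpha chain that binds IgE (Fcer1a), a beta chain that amplifies the signal (Ms4a2) and a gamma chain dimer (Fcer1g) that many myeloid cells share. Ms4a2, on chromosome 19 (ENSMUSG00000024680, 11615523 to 11623719, minus strand), had 716 and 260 counts, or 31.4 (27.9 to 35.0) and 18.1 (16.4 to 21.6) coding-scaled TPM. Replicate 1 was the higher without overlap, and the mean was 24.7 ± 9.36. Fcer1a, on chromosome 1 (ENSMUSG00000005339, 173221284 to 173227214, minus strand), had 134 and 67 counts, or 10.9 (9.27 to 13.0) and 10.9 (8.45 to 13.9). The libraries agreed within those bounds, and the mean was 10.9 ± 0.0365. Fcer1a ranked 5322 of 12895, between Scd1 (10.9 ± 1.28) and Zfp646 (10.9 ± 2.22). Fcer1g stood at 132 ± 54.4, which is 15.6 and 8.63 times Fcer1a and 5.44 and 5.18 times Ms4a2 by TPM.

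The relatives of both subunits were mixed, beside 43.9% of all nuclear protein-coding genes detected. Of 14 other MS4A genes 6 were detected and 4 had 0 counts. Ms4a3, the coding gene next to Ms4a2 and known from granulocyte and monocyte precursors, was highest at 99.0 ± 4.63, followed by Ms4a6c (29.2 ± 7.18), Ms4a4c (18.4 ± 0.312) and Ms4a7 (16.6 ± 10.8). Ms4a6d, on the other side of Ms4a2, had 11 and 25 counts. Of 8 other Fc receptor genes 4 were detected, led by the IgG receptor genes Fcgr3 (99.4 ± 23.9), Fcgr2b (22.6 ± 2.07), Fcgr4 (10.5 ± 0.880) and Fcgr1 (3.92 ± 1.24). Fcer2a, the low-affinity IgE receptor of B cells, had 0 counts, as did both olfactory receptor genes beside Fcer1a, Olfr1404 and Olfr418.

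In order of mean level the genes ran Prg2, Mcpt8, Prss34, Epx, Cpa3, Ms4a2, Prg3 and Fcer1a. The first 4 and the last kept their places in both libraries. Ms4a2 stood just above Cpa3 in replicate 1, and Prg3 stood above both in replicate 2. The ranges of Cpa3, Ms4a2 and Prg3 overlapped, so these 3 did not differ beyond the spread between the libraries. Epx and Cpa3 differed by 0.782 times the sum of their standard deviations, although Epx was the higher in both. The order depends on the division by length: in CPM over coding counts Epx (65.7 ± 15.9) came second, above Prss34 (55.5 ± 7.05) and Mcpt8 (53.3 ± 3.57), and Ms4a2 (27.7 ± 7.88) came above Cpa3 (23.3 ± 5.97).

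**Figure D3:**
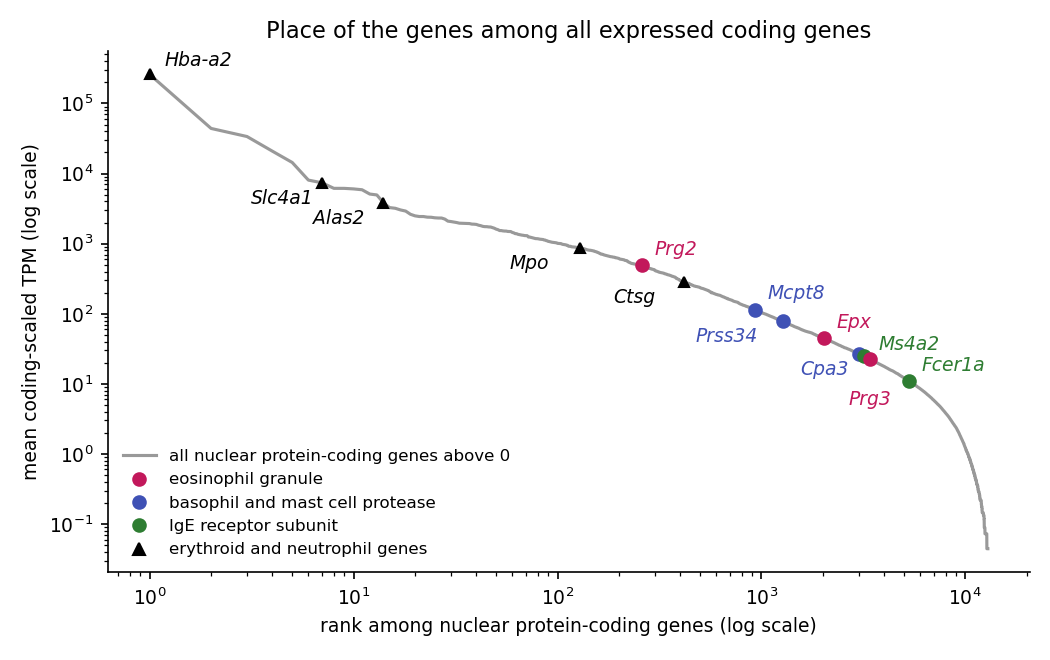
Mean coding-scaled TPM against rank, both on log scales, for all nuclear protein-coding genes above 0 (line), with the 8 genes (coloured points) and 5 erythroid or neutrophil genes for comparison (triangles). Prg2 lies between Mpo and Ctsg, and the other 7 genes lie below both.

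The starts of 6 genes held a GATA word, which GATA factors of blood cells are known to read, or TATAA, a general promoter word, and 5 windows are shown to let those words be seen in place. They are the 100 bases before the transcription start in RefSeq (GRCm38.p6), written 5′ to 3′, and 7 of the 8 genes had an entry. Prg2 had none and was not searched. Capitals mark a GATA word, which is AGATAA or its variant AGATAG or else TGATAA or its variant TGATAG, searched on both strands, and the word TATAA on the gene's strand within 50 bases of the start.
Cpa3, chr3:20242182-20242281, minus strand: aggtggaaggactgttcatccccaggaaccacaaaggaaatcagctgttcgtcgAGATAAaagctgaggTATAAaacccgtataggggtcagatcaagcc
Prss34, chr17:25298294-25298393, plus strand: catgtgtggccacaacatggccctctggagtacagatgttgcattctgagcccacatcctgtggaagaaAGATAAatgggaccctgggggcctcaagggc
Fcer1a, chr1:173227230-173227329, minus strand: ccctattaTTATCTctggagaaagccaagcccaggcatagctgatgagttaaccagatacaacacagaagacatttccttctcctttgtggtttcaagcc
Prg3, chr2:84988115-84988214, plus strand: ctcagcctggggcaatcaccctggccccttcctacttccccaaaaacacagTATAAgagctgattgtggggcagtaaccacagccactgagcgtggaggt
Epx, chr11:87875537-87875636, minus strand: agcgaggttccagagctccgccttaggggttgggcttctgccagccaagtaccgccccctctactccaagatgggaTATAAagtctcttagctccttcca

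A GATA word stood in these 100 bases in 4 of 7 genes, namely Cpa3, Prss34, Fcer1a and Ms4a2, and in 10.4% of 32851 promoters in the table. In Cpa3 it began 46 bases before the start, with no base shared with TATAA, and in Prss34 31 bases before it. In Ms4a2, whose window is not printed here, such words began 37 and 11 bases before the start. Over 250 bases before the start, 5 of 7 genes held a GATA word, Prg3 being added, against 26.5% of promoters. TATAA stood within 50 bases of the start in Prg3, Cpa3 and Epx, against 4.93% of promoters. The word TTGCNNAA, searched on both strands over 250 bases, was found in Fcer1a alone and in 9.56% of promoters. Mcpt8 held none of these words in the bases searched. A match describes letters only, and binding was not measured here.

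Of 4 genes 1 transcript carried every count in both libraries. These were Prg2-201 (6 exons), Mcpt8-201 (5 exons), Prss34-201 (5 exons) and Cpa3-201 (11 exons), each at 100% of its gene. Prg2, Mcpt8 and Prss34 have only 1 transcript listed, so their share of 100% was fixed in advance. The second listed transcript of Cpa3 had 0 counts in both. The other 4 genes had shares that differed between the libraries.

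Epx-201, the protein-coding form of 13 exons, held 72.5% of the TPM of Epx in replicate 1 and 100% in replicate 2. The remainder in replicate 1 was Epx-202, a processed transcript of 658 bases with no annotated protein, with 110 estimated counts there (posterior standard deviation 17.7) and 0 in replicate 2. By counts its share in replicate 1 was 6.64%, since TPM weights the short form more. Prg3-201 held 95.9% and 72.8%, and the rest was the processed transcript Prg3-202, with 3.99 and 16.0 counts, for posterior standard deviations of 7.12 and 7.92. Fcer1a-201 held 100% and 67.2%, and the rest in replicate 2 was Fcer1a-202, also protein-coding, with 18.7 counts (posterior standard deviation 10.5). The shares of Prg3 and Fcer1a thus rest on few reads.

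Ms4a2 was the only gene with 3 or more transcripts in use in both libraries. Ms4a2-204, the longest form at 2391 bases and 6 exons, held 51.8% and 71.3% of TPM, a mean of 61.5% ± 13.8, and 543 and 224 counts. Ms4a2-202 followed at 19.3% and 22.2%. Ms4a2-201 held 13.0% and 6.52%. Ms4a2-205 held 16.0% in replicate 1, from 34.8 counts with a posterior standard deviation of 14.4, and 0% in replicate 2. The library with more of the short forms was replicate 1, where the estimated length of the gene was 1693 bases against 2008 in replicate 2.

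**Figure D4:**
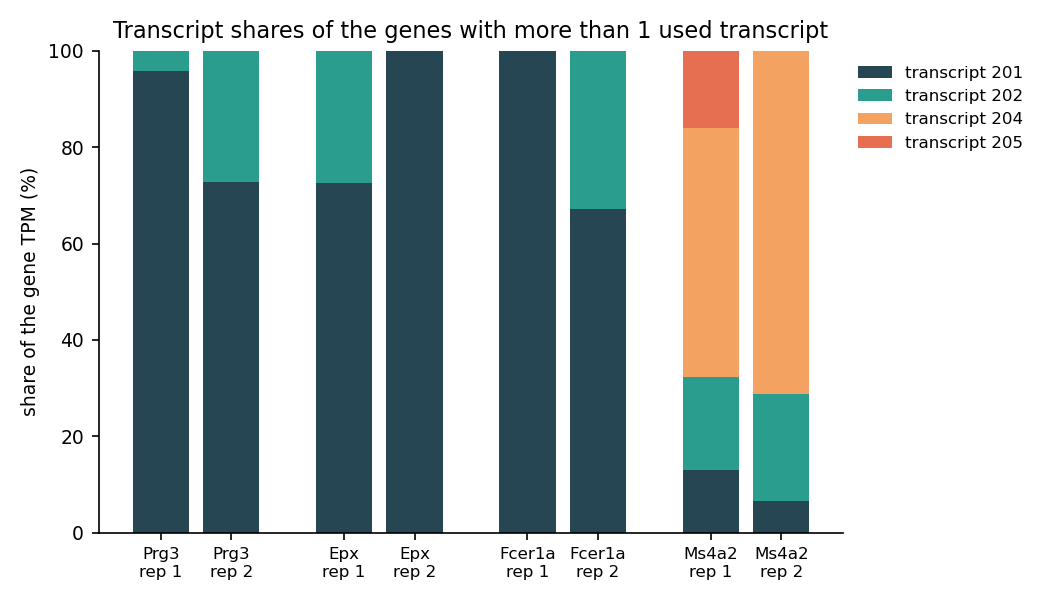
Share of the gene's TPM in percent held by each transcript in replicates 1 and 2, for the 4 genes with counts on more than 1 transcript. Epx, Prg3 and Fcer1a each show a second form above 25% in 1 library and under 5% in the other, and Ms4a2-204 leads Ms4a2 in both.

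The 2 libraries were compared gene by gene after scaling. None of 8 was at least 2-fold apart, against 21.9% of 11181 coding genes averaging 10 counts or more, a minimum that all 8 passed. At a minimum of 100 counts, which all 8 also passed, the share was 8.54%, so a count of 0 among 8 is near the background. Of the 8 genes 7 had a lower scaled count in replicate 2, against 53.6% of coding genes. The median log2 ratio of replicate 2 over replicate 1 was -0.25, against -0.05 for all those genes. By the ratio of coding-scaled TPM 6 of 8 were lower, against 48.7%, and by library size alone, which moves the median of all genes to -0.20, all 8 were, against 63.9%.

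Among the single genes Ms4a2 had the lowest log2 ratio, -0.58 (95% interval -0.79 to -0.38, for counting error only), followed by Cpa3 at -0.52 (-0.75 to -0.30) and Epx at -0.49 (-0.63 to -0.36). Prg2 had -0.25 (-0.32 to -0.18) and Prss34 -0.25 (-0.40 to -0.11). The intervals of these 5 genes lay below 0, which held for 36.8% of coding genes. Prg3 (-0.15, from -0.48 to 0.17) and Fcer1a (-0.12, from -0.57 to 0.31) had intervals that included 0. Mcpt8 was the exception in direction, at 0.14, with an interval that ended at 0.28 and began just above 0. By library size alone its ratio was -0.0036. With coding-scaled TPM in place of scaled counts, Prg3 was also higher in replicate 2, at 0.08, and Epx and Ms4a2 each had -0.79. Each ratio compares 2 libraries of the same group and has no replicate check.

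**Figure D5:**
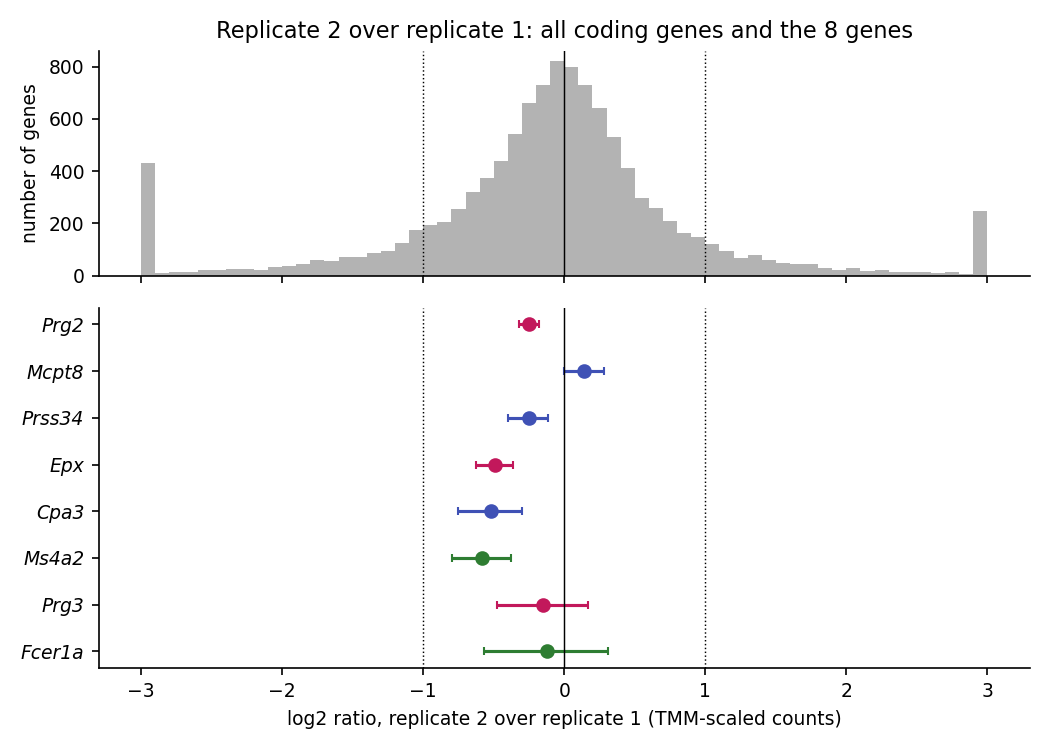
Upper panel, the number of nuclear protein-coding genes by log2 ratio of replicate 2 over replicate 1, with ratios beyond 3 in either direction drawn in the last bars. Lower panel, the 8 genes with 95% counting intervals. All 8 points lie between the dotted lines at a 2-fold difference, and Mcpt8 alone lies to the right of 0.

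Other genes of the same cells were read from lists. Of 11 further eosinophil genes measured, 8 were detected, beside 43.9% of all nuclear protein-coding genes, and Ear10 and Rnase2a had 0 counts. Cd24a led at 4957 ± 967, but red cell precursors and neutrophils express it too. The eosinophil ribonuclease genes followed, with Ear2 at 136 ± 49.1, Ear1 at 67.3 ± 9.64 and Ear6 at 65.9 ± 5.03. Ear1 and Ear2 belong to a family of similar genes, and the authors' model gave them posterior standard deviations of 1.27 to 1.80 counts. Ear2 had 811 and 748 counts and a log2 ratio of 0.76, opposite in sign to the 3 eosinophil members. Ear1 at -0.29 and Ear6 at -0.14 had the sign of those members, with an interval for Ear6 that included 0. Of the 8 genes of that list with a ratio, 6 were lower in replicate 2, against 53.6% of coding genes. Surface receptors were lower. Ccr3, the eotaxin receptor, stood at 17.6 ± 1.15 and Siglecf at 6.82 ± 0.411. Il5ra, the receptor subunit for the eosinophil growth factor IL-5, had 8 and 0 counts. Alox15, a lipoxygenase, had 28.2 and 5.95, the one gene of that list at least 2-fold lower in replicate 2.

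Further basophil and mast cell genes were detected in part, beside 43.9% of all nuclear protein-coding genes. Of 12 further basophil genes 4 reached the limit, a count near that share, and the median of all 12 was 1.01 ± 0.201. These were Cd200r3 (8.04 ± 3.58), Il3ra (3.59 ± 1.59), Hgf (3.22 ± 0.160) and Csf2rb2 (1.09 ± 0.0989). Ifitm1, at 12.5 and 0.725, passed in replicate 1 alone. The cytokine gene Il4 had 0 and 4 counts, and Il13 had 0 in both. Of 14 further mast cell genes 3 were detected and 9 had 0 counts in both libraries. The detected genes were Hdc, which makes histamine and is also used by basophils (24.5 ± 1.48), Kit, the stem cell factor receptor that early red cell precursors carry too (16.1 ± 5.54), and Rab27b (1.69 ± 0.750). Slc18a2 followed at 1.31 ± 0.602. The genes at 0 were Tpsb2, Tpsab1, Cma1, Mcpt1, Mcpt4, Mcpt9, Mrgprb1, Mrgprb2 and Tph1, which include the proteases and the receptor of mature mast cells in tissue.

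Markers of other cells present in the libraries are given beside these values, with 43.9% of all nuclear protein-coding genes detected. All 12 neutrophil markers were detected, with a summed level of 20697 and 20185 coding-scaled TPM in replicates 1 and 2, led by S100a8 (8070 ± 918) and S100a9 (6041 ± 1769). All 8 monocyte and macrophage markers were, with sums of 695 and 430, led by Ly6c2 (287 ± 162) and Ccr2 (77.9 ± 12.3). Of 7 megakaryocyte markers 4 were, with sums of 121 and 144, led by Itga2b (91.4 ± 19.5) and Vwf (25.2 ± 4.52). Of 8 B, T and NK cell markers only Nkg7 (20.3 ± 5.89) was, followed by Klrb1c (1.30 ± 0.831), with sums of 26.4 and 18.4, and Cd3d and Cd8a had 0 counts. The 9 eosinophil markers, members included, summed to 877 and 824, with 8 detected. The 7 basophil markers summed to 280 and 252, with all detected. They include the 5 basophil and mast cell members, which alone summed to 265 and 244, so this list mostly repeats the members. The 10 mast cell markers, which include the members Cpa3, Fcer1a and Ms4a2, summed to 111 and 94.9. Of these 5 were detected, and Tpsb2, Tpsab1, Cma1, Mcpt4 and Mrgprb2 were at 0. Of the neutrophil markers 9 of 12 were lower in replicate 2, of the monocyte and macrophage markers 7 of 8 and of the erythroid markers 7 of 9. Their median log2 ratios were -0.26, -0.22 and -0.21. Of all coding genes 53.6% were lower, with a median of -0.05. Among markers with enough counts, 4 of 6 megakaryocyte (median -0.83) and 2 of 3 B, T and NK cell markers (-0.61) were lower. So were 6 of 8 eosinophil (-0.17), 5 of 7 basophil (-0.25) and 5 of 5 mast cell markers (-0.41). These last lists hold the members, with Cpa3, Fcer1a and Ms4a2 on both the basophil and the mast cell list. Their counts thus partly repeat the members' own ratios. Of the mast cell markers that are not members, Hdc had -0.41 and Kit -0.06 (-0.24 to 0.11). The part of these cells in the levels of the 8 genes was not tested.

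The genes that act with the IgE receptor were nearly all detected, 13 of 14, beside 43.9% of all nuclear protein-coding genes. Their median was 15.4 ± 4.58. After Fcer1g came the adaptor Vav1 (41.0 ± 0.398), the kinase Lyn (39.1 ± 2.70), which starts the signal, and the kinase Syk (25.6 ± 1.68). The adaptor gene Lat, the exception, had 0.977 and 8.12. Between the libraries 2 of the 14 were at least 2-fold lower in replicate 2 (Btk and Gab2, each at a log2 ratio of -1.51) and 2 higher (Lat at 2.99 and Plcg1 at 1.09), beside the 21.9% of coding genes at least 2-fold apart. All of these also serve other blood cells.

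Regulators and granule genes were mostly detected too, beside 43.9% of all nuclear protein-coding genes. Of 20 cytokine receptors and transcription factors 19 were, with a median of 13.0 ± 0.627, led by Zfpm1, the GATA1 partner known as FOG1 (338 ± 204), Runx1 (129 ± 5.24), Xbp1 (49.1 ± 6.24), which eosinophils need, and Cebpe, a granulocyte factor (42.7 ± 18.9). Gata1 stood at 41.7 ± 15.5 and Gata2, which basophils and mast cells need, at 3.98 ± 0.908. Mitf, the mast cell factor, was the exception, at 0.977 and 0.290. Il1rl1, the receptor for IL-33, stood at 16.8 ± 1.04 and Csf2rb, the chain shared by the receptors for IL-3, IL-5 and GM-CSF, at 13.0 ± 1.58. Of 15 genes of granule storage and release 14 were detected, with a median of 29.6 ± 1.08. The granule proteoglycan Srgn led at 344 ± 137, ahead of Ctsd (289 ± 13.2), Lamp1 (120 ± 20.9) and Vamp8 (102 ± 8.38).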

How the data were processed

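Total RNA was measured in 2 libraries of 1 group. Per the file headers, the deposited tables hold expected counts (estimated read counts that need not be whole), TPM, FPKM and, per transcript, the percent of a gene's TPM. The genome was mm10 per the labels, with gene models of GENCODE M4 per the deposited records. Aligner and counting program: not given in the sources used here. The members were found by gene identifier through GENCODE M21 on the same assembly. TPM was rescaled so that 21461 nuclear protein-coding genes sum to 1000000, called coding-scaled TPM. Counts were rounded and scaled by TMM factors (edgeR 4.0.16, R 4.3.3) for log2 ratios of genes averaging 10 counts or more. The ratio step was tested on simulated data. Intervals of ratios are Clopper-Pearson 95% intervals, and the interval level of TPM bounds is not stated in the files. DESeq2 1.42.0 size factors were an alternative. No p-value is given, since there is 1 group. Python 3.11.15 with pandas 2.3.3 and matplotlib 3.10.9 did the rest.

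The members and gene lists were chosen with earlier results of these data known. All 8 members are named, with the highest 4 genes of each list of related genes, the highest 2 of each marker list, each nearest coding neighbour and each transcript with a mean share of at least 10%. Genes named beyond that rule were chosen after their values were seen. A few results that this rule would name are not reported here. Of the listed genes, 4 were not analysed here, and protein sequences were not used here. Alternatives were the scale, the detection limit, the scaling of ratios, the count minimum, posterior means and each library alone.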

Additional observations from a re-analysis of the deposited data

How the results depend on the processing

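All 8 genes stayed detected with at least 10 counts, with at least 10 coding-scaled TPM and in each library alone, and 7 with a deposited TPM of 1. The median level of 35.8 ± 11.3 was 3.42 in deposited TPM and 56.5 with the 4 adult globin genes left out of the sum, which change the unit, and 27.8 to 43.8 in single libraries. None of the 8 genes was 2-fold apart under any scaling tried. Mcpt8 reversed from 0.14 to -0.0036 by library size alone. The ratio of Mpo to Epx was 16.2 by counts in place of 19.3 by TPM, and the share of Cpa3-201 was 98.1% by posterior mean in place of 100%. Shares in single libraries ranged from 72.8% to 95.9% for Prg3-201, 72.5% to 100% for Epx-201, 67.2% to 100% for Fcer1a-201 and 51.8% to 71.3% for Ms4a2-204. Single libraries gave 19.5 to 24.4 for Prg2 to Prg3 and 19.0 to 19.6 for Mpo to Epx. No paired analysis was possible because there is 1 group. With 67 counts of Fcer1a and 120 of Prg3 in replicate 2, differences between libraries within the intervals given were not detectable at this depth.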
